A study of Mus musculus with 8 samples.

Results

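The 37 genes described here build or control the heart muscle cell, and were followed in whole mouse embryos with a low-expression allele of Ott1 (current symbol Rbm15, an RNA-binding protein). They were listed by function: transcription factors and regulators of cardiomyocytes, proteins of the thick filament, the thin filament and the Z-disc, genes of calcium handling and of the membrane, and stress and natriuretic peptide genes. A gene counted as measured where a probe's RefSeq accession belonged to it. That held for 34 of the 37, out of 13971 genes named in this way, each with 1 probe; no probe was matched to Nppa, Hcn4 or Ldb3. The 8 embryos came from matings of mice carrying the allele and were taken at stage E11.5. Embryos 2, 7 and 16 were homozygous for the low-expression allele, embryos 3, 10 and 15 were heterozygous, and embryos 11 and 13 were wild type. Each of the 8 one-colour CodeLink oligonucleotide arrays held RNA of 1 whole embryo, so the heart gave only a share of the RNA. Fewer heart muscle cells and less RNA per cell cannot be told apart in such samples. The labels give neither the strain nor how the allele lowers expression, and no probe was matched to Rbm15, so its level was not checked.

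At this stage the heart is a looped, beating tube in which the chambers are being set apart. Heart muscle identity is set by a small network of transcription factors (Gata4, Gata6, Nkx2-5, Tbx5, Tbx20, Hand1, Hand2, Isl1 and Mef2c) that act together on shared enhancers, and myocardin (Myocd) joins serum response factor at the CArG boxes of muscle genes. Their targets build the sarcomere, where myosin of the thick filament pulls on actin of the thin filament once calcium binds to troponin, and where Z-discs anchor the thin filaments. Calcium is pumped back into the sarcoplasmic reticulum by SERCA2 (Atp2a2), which phospholamban (Pln) and sarcolipin (Sln) restrain. Atria and ventricles use partly different isoforms of these proteins, and the genes for natriuretic peptides and Ankrd1 are known to respond to load on the heart.

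All levels are log2 of the background-subtracted, quantile-normalized intensity of a gene's probe, and a difference is the fitted log2 level in the homozygous minus that in the other embryos. Of the 34 genes with a probe, 30 were above background in every embryo of at least 1 genotype and were tested. Of the 30, 26 were above background in all 8 embryos with no spot left out. Popdc2 is not among the 26 because its spot in embryo 16 was left out as marked, although above background. Before normalization the arrays of homozygous embryos 2, 7 and 16 had median intensities of 61.45, 61.52 and 87.93, against 48.28 to 57.63 for the 5 others. All 3 homozygous arrays were thus the brightest of the 8, and array brightness and homozygosity cannot be told apart. Array 16 also stood apart in its number of probes above background, 26619 against 22526 to 23721 on the other arrays, and in its gene spots left out as marked by a spot flag, 1634 against 206 to 616. Values without embryo 16 are given beside the results that rest on it.

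In the homozygous embryos the contractile genes of the thick filament and phospholamban were measured a little higher, and sarcolipin, telethonin and cardiac troponin C a little lower, than in the 5 others, but none of these differences passed the test. None of the 30 tested genes passed an adjusted p of 0.05 by limma (Benjamini-Hochberg over all 23389 tested probes), where 0.107% of all probes passed. At an unadjusted p under 0.05 there were 9 of the 30, against 20% of all probes. The 3 that were higher were Myl3, Pln and Ankrd1 (3 of 30, against 6.63% of all probes), and the 6 that were lower were Mef2c, Smyd1, Tbx20, Tnnc1, Tcap and Sln (6 of 30, against 13.4%). The differences of 21 of the 30 were positive, against 39.8% of all probes, and their median was 0.13, against -0.06 over all probes. That count of signs depended on the scaling. With the arrays scaled to 1 median, or with the authors' scaled values, 12 of the 30 were positive and the median of all probes lay at -0.22 and -0.25. The median of the 30 genes lay 0.19 above that of all probes after quantile normalization, and 0.036 above it under median scaling and with the authors' scaled values. Read against the median of all probes, 22 of the 30 lay above it after quantile normalization and 18 of the 30 under each of those 2 scalings. The 3 homozygous values lay wholly above or wholly below the 5 others for 2 of the 30 genes, Atp2a2 and Mef2c, or 6.67%, against 14.6% of all probes.

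**Figure D1:**
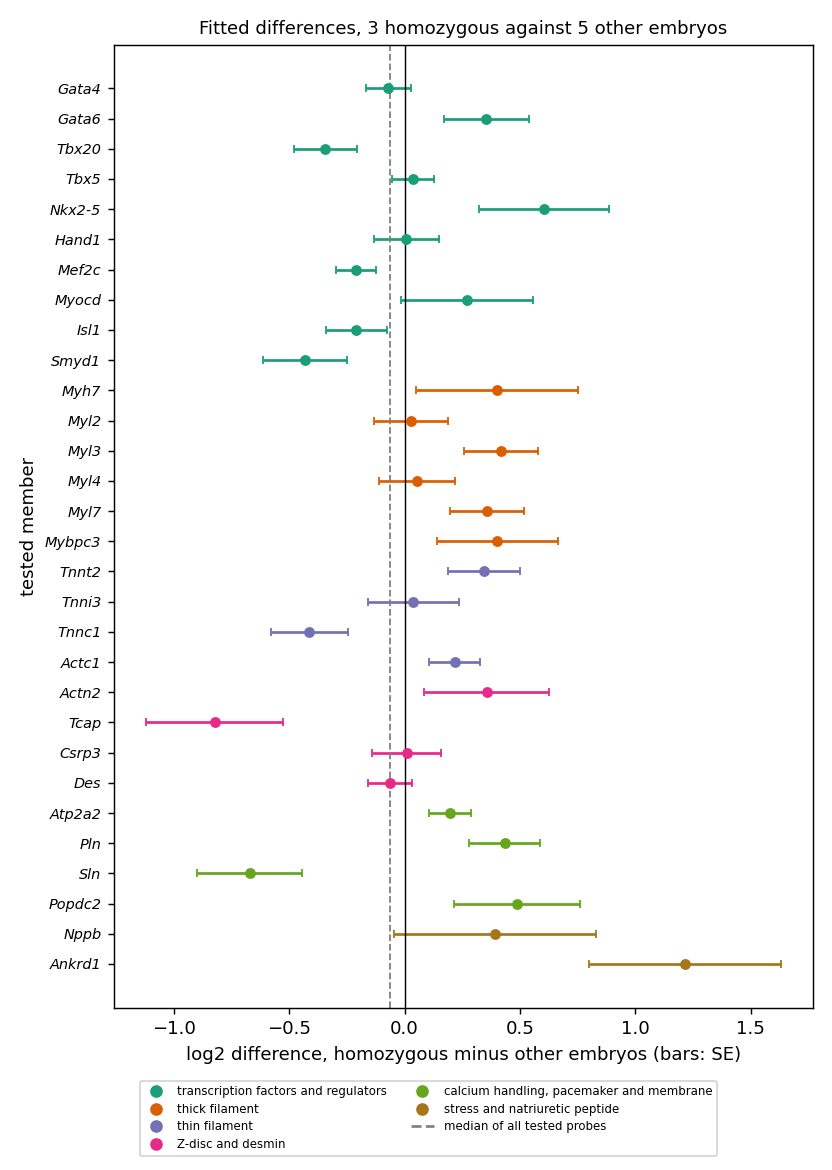
Fitted log2 difference, homozygous minus the 5 other embryos, of each tested gene (points; bars, SE), coloured by class; the solid line marks 0 and the dashed line the median of all tested probes, -0.06. The differences run from -0.82 for Tcap to 1.22 for Ankrd1, and no gene passed an adjusted p of 0.05. Scaling each array to 1 median moves 9 of the positive ones below 0, and the median of all probes to -0.22.

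The transcription factors and regulators showed no shared direction: 5 of the 10 tested were higher and 5 lower in the homozygous embryos, with a median difference of -0.03. The 3 with an unadjusted p under 0.05 were all lower (3 of 10, where 13.4% of all probes were lower and 6.63% higher at that p), and none passed after adjustment. Mef2c, a MADS-box factor of the heart field and of skeletal muscle, had log2 levels of 7.42, 7.45 and 7.39 in the homozygous, 7.61, 7.67 and 7.72 in the heterozygous, and 7.66 and 7.49 in the wild type embryos. All 3 homozygous values lay below all 5 others, although the closest pair, homozygous embryo 7 and wild type embryo 13, differed little. The fitted difference was -0.21 ± 0.09 (SE), a 1.16-fold lower level (adjusted p = 0.225). Tbx20, a T-box factor of the working myocardium, was at 5.39, 5.19 and 5.53 in the homozygous, 5.71, 5.82 and 5.53 in the heterozygous, and 5.98 and 5.52 in the wild type embryos. Homozygous embryos 2 and 7 held the lowest values and embryo 16 lay level with heterozygous embryo 15 and wild type embryo 13; the difference was -0.34 ± 0.14 (SE, adjusted p = 0.22). Smyd1, a methyltransferase of heart and skeletal muscle, was lower by a similar size, -0.43 ± 0.18 (SE, adjusted p = 0.24), with its lowest value, 4.48, in homozygous embryo 16; without that embryo the difference was -0.233.

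Isl1, which marks second heart field progenitors and also motor neurons, was at 9.92, 10.04 and 9.91 in the homozygous, 10.14, 9.94 and 10.11 in the heterozygous, and 10.53 and 10.11 in the wild type embryos. Wild type embryo 11 alone stood above the rest, and the difference was -0.21 ± 0.13 (SE, adjusted p = 0.394); without that embryo it was -0.117. Tbx5, which works in the atria, the left ventricle and the forelimb, was at 8.64, 8.69 and 8.61 in the homozygous, 8.56, 8.49 and 8.76 in the heterozygous, and 8.58 and 8.65 in the wild type embryos. These 8 values spanned a narrow range in which the genotypes overlapped, and the difference was 0.04 ± 0.09 (SE). Under median scaling it was -0.183, with the median of all probes at -0.22. The remaining factors overlapped between the genotypes too. Gata4, a zinc finger factor at the head of the network, differed by -0.07 ± 0.10 (SE), and Gata6, its partner, by 0.35 ± 0.18 (SE). Nkx2-5, the homeodomain factor of cardiac progenitors and myocytes, was printed here after its values had been seen, because its difference of 0.60 ± 0.28 (SE) was the largest of the class (adjusted p = 0.27). Its log2 levels were 8.23, 7.86 and 7.62 in the homozygous, 6.91, 8.03 and 7.09 in the heterozygous, and 7.60 and 6.87 in the wild type embryos. Heterozygous embryo 10 lay among the homozygous values, and the other four embryos lay below them. Myocd ranged from 5.07 to 6.15 over the 8 embryos, with a difference of 0.27 ± 0.29 (SE) that lay between 0.116 and 0.523 with 1 embryo left out. Hand2, the partner of Hand1 in the outflow tract and right ventricle, was not above background in any embryo.

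**Figure D2:**
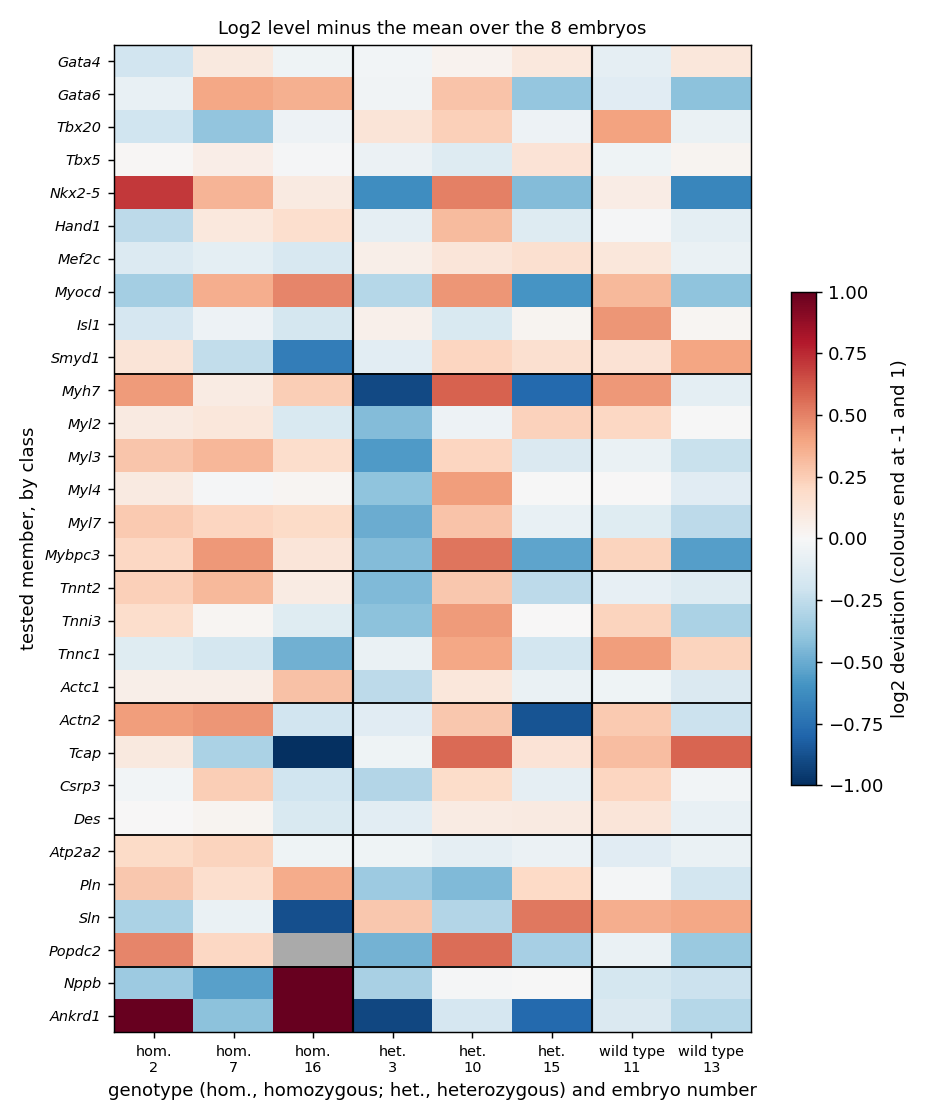
Log2 level of each tested gene (rows, by class, separated by black lines) in each embryo (columns, by genotype), as the deviation from that gene's mean over the 8 embryos; red is higher, blue lower and grey a spot left out. Heterozygous embryo 3 is blue in all thick and thin filament rows, and heterozygous embryo 10 is red in all of them but Myl2.

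All 6 tested thick filament genes had positive differences, with a median of 0.38, or 0.44 above the median of all probes. Those of Myl2 (0.03) and Myl4 (0.05) were smaller than their SE. Under median scaling, and with the authors' scaled values, the class median lay 0.222 above that of all probes. Against wild type alone, 5 of the 6 were positive, Myl2 being lower (-0.08), with a median of 0.25. Only Myl3 had an unadjusted p under 0.05, and none passed after adjustment. Myl2, Myl4 and Myl7 turned negative when the arrays were scaled to 1 median (-0.325, -0.305 and -0.0485). The median of all probes then lay at -0.22, above Myl2 and Myl4 but below Myl7. Myl3, the ventricular and slow-muscle essential light chain, had log2 levels of 11.91, 11.96 and 11.81 in the homozygous, 11.07, 11.85 and 11.49 in the heterozygous, and 11.57 and 11.41 in the wild type embryos. Embryos 2 and 7 were above all 5 others, while embryo 16 lay just below heterozygous embryo 10. The fitted difference was 0.42 ± 0.16 (SE), a 1.34-fold higher level (adjusted p = 0.209). Myl7, the atrial regulatory light chain, was at 13.52, 13.47 and 13.45 in the homozygous, 12.76, 13.55 and 13.18 in the heterozygous, and 13.13 and 12.99 in the wild type embryos. Here too the homozygous values lay close together and above all others except that of embryo 10, and the difference was 0.36 ± 0.16 (SE, adjusted p = 0.258). Mybpc3, the myosin-binding protein that regulates cross-bridge cycling, differed by 0.40 ± 0.26 (SE), with 8.68 to 8.99 in the homozygous and 8.01 to 9.09 in the 5 other embryos.

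Heterozygous embryos lay at both ends of this class. Taken as the median deviation of the thick filament genes from their means over 8 embryos, the class stood at 0.23, 0.16 and 0.15 in the homozygous, -0.47, 0.35 and -0.11 in the heterozygous, and 0.11 and -0.17 in the wild type embryos. Embryo 3 was the lowest and embryo 10 the highest of the 8, and both were heterozygous. Over the 29 tested genes measured on every array, embryo 3 was the lowest of the 8 embryos for 10 genes, and homozygous embryo 16 for 7. Embryo 10 was the highest of the 8 for 6 genes, as was homozygous embryo 7. Among the 5 heterozygous and wild type embryos, embryo 3 was the lowest for 14 genes and embryo 10 the highest for 13. Without heterozygous embryo 3, 16 of the 30 differences between homozygous and other embryos were positive.

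**Figure D3:**
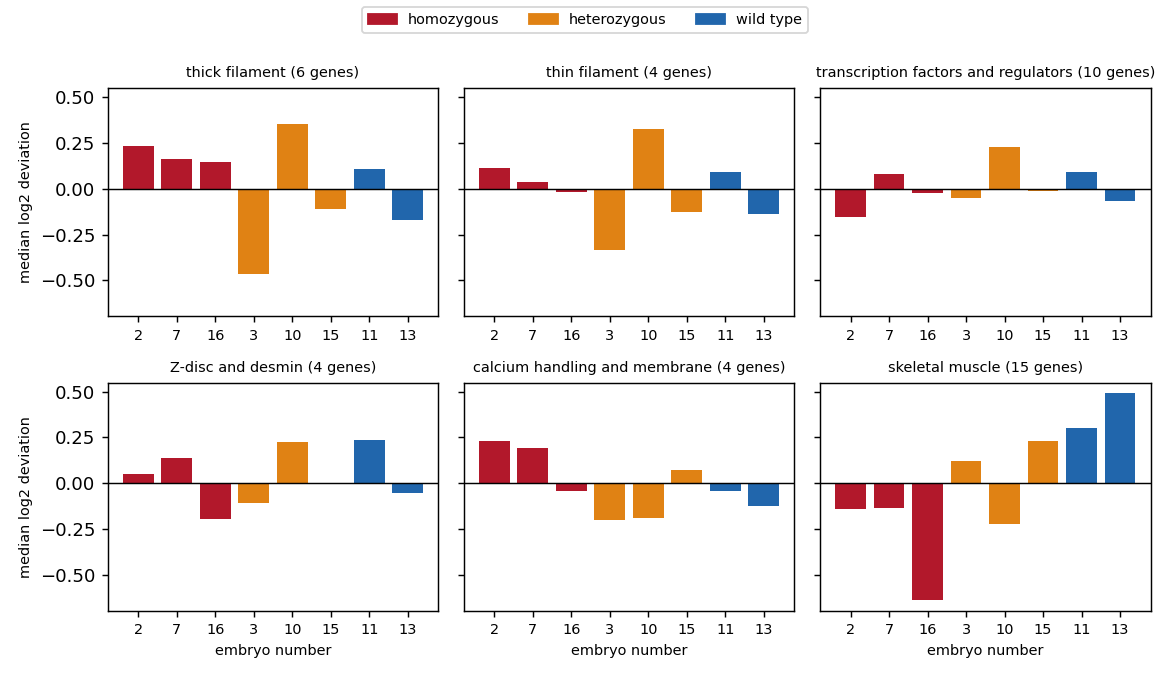
Median log2 deviation from the mean over the 8 embryos (bars), for the tested genes of 5 classes and for 15 skeletal muscle genes, in each embryo, coloured by genotype. In the thick filament panel the homozygous embryos stand at 0.23, 0.16 and 0.15, between heterozygous embryos 10 (0.35) and 3 (-0.47); in the skeletal muscle panel homozygous embryo 16 is lowest at -0.64.

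Of the 4 thin filament genes, 3 were measured higher and 1 lower in the homozygous embryos, and none passed the test. Tnnc1, the calcium-binding troponin C of heart and slow skeletal muscle, was the lower one, at 7.78, 7.72 and 7.42 in the homozygous, 7.83, 8.28 and 7.72 in the heterozygous, and 8.32 and 8.12 in the wild type embryos. Embryo 16 held the lowest value, and heterozygous embryo 15 lay level with homozygous embryo 7. The difference was -0.41 ± 0.17 (SE), or 1.33-fold lower (adjusted p = 0.223), and lay between -0.499 and -0.309 with 1 embryo left out. Tnnt2, the cardiac troponin that ties the complex to tropomyosin, was at 8.89, 8.98 and 8.74 in the homozygous, 8.22, 8.93 and 8.40 in the heterozygous, and 8.58 and 8.53 in the wild type embryos. Embryo 10 again reached into the homozygous values, and the difference was 0.35 ± 0.15 (SE, adjusted p = 0.258). Actc1, the cardiac actin, was at 13.16, 13.17 and 13.40 in the homozygous, 12.85, 13.22 and 13.04 in the heterozygous, and 13.06 and 12.96 in the wild type embryos, a difference of 0.22 ± 0.11 (SE) that turned to -0.184 under median scaling and was 0.139 without embryo 16. Tnni3, the cardiac troponin I, was at 9.87, 9.71 and 9.57 in the homozygous, 9.29, 10.12 and 9.70 in the heterozygous, and 9.92 and 9.38 in the wild type embryos. Its homozygous values fell inside the range of the others, and the difference of 0.04 ± 0.20 (SE) turned to -0.235 under median scaling. The median of all probes lay at -0.22 under that scaling, below the value of Actc1 and just above that of Tnni3.

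Among the Z-disc genes and desmin, 2 differences were positive and 2 negative. Tcap, or telethonin, which caps titin at the Z-disc of heart and skeletal muscle, had the most negative difference of the 30, -0.82 ± 0.30 (SE, adjusted p = 0.196). Its log2 levels were 5.72, 5.31 and 4.31 in the homozygous, 5.58, 6.19 and 5.76 in the heterozygous, and 5.94 and 6.21 in the wild type embryos. The low mean of the homozygous embryos rested in part on embryo 16. Without that embryo the difference was -0.439. Actn2, the actinin that cross-links thin filaments, was at 5.50, 5.52 and 4.89 in the homozygous, 4.96, 5.35 and 4.22 in the heterozygous, and 5.34 and 4.86 in the wild type embryos, and was above background in only 1 of the 3 heterozygous embryos. Its difference of 0.36 ± 0.27 (SE) was about as large as the spread among the other embryos, and lay between 0.173 and 0.591 with 1 embryo left out. Csrp3, the muscle LIM protein that senses stretch, was at 8.80, 9.08 and 8.63 in the homozygous, 8.54, 9.01 and 8.74 in the heterozygous, and 9.04 and 8.80 in the wild type embryos, and Des, the intermediate filament of muscle, at 8.14, 8.17 and 7.98 in the homozygous, 8.03, 8.22 and 8.23 in the heterozygous, and 8.26 and 8.06 in the wild type embryos. For both, the genotypes overlapped and the differences were no larger than their SE, 0.01 ± 0.15 (SE) and -0.06 ± 0.10 (SE).

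Among the genes of calcium handling and the membrane, Pln and Sln differed in direction. Both encode small membrane peptides that restrain SERCA2; Pln was measured higher and Sln lower in the homozygous embryos, and neither passed the test. Pln was at 9.11, 9.01 and 9.21 in the homozygous, 8.48, 8.39 and 9.04 in the heterozygous, and 8.82 and 8.66 in the wild type embryos. Only heterozygous embryo 15 reached into the homozygous range, and the difference was 0.43 ± 0.15 (SE), or 1.35-fold higher (adjusted p = 0.19). Sln, which marks the atria and is also made in skeletal muscle, was at 6.86, 7.11 and 6.29 in the homozygous, 7.44, 6.88 and 7.71 in the heterozygous, and 7.54 and 7.56 in the wild type embryos. Heterozygous embryo 10 lay between homozygous embryos 2 and 7, so the groups overlapped. The difference was -0.67 ± 0.23 (SE), or 1.59-fold lower (adjusted p = 0.185). It ranged from -0.84 to -0.45 with 1 embryo left out, and stayed in that range under the other alternatives. Embryo 16 held the lowest of the 8 values. Atp2a2, the pump itself, was at 11.88, 11.91 and 11.65 in the homozygous, 11.64, 11.60 and 11.63 in the heterozygous, and 11.57 and 11.62 in the wild type embryos. The homozygous values all lay above the others, but embryo 16 by only a small step, and the difference was 0.20 ± 0.09 (SE). Under median scaling it was -0.161, with the median of all probes at -0.22.

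Popdc2, a cAMP-binding membrane protein of the heart, was at 6.86 and 6.58 in homozygous embryos 2 and 7; in the remaining genotypes it ranged between 5.89 and 6.92. The spot of embryo 16 was marked by a spot flag and saturated, so the fit used 7 embryos, and the difference was 0.49 ± 0.27 (SE, adjusted p = 0.349). With marked spots kept it was 3.14. Ryr2, the calcium release channel, and Casq2, the calcium store protein, were not tested, because neither was above background on all arrays of a genotype.

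**Figure D4:**
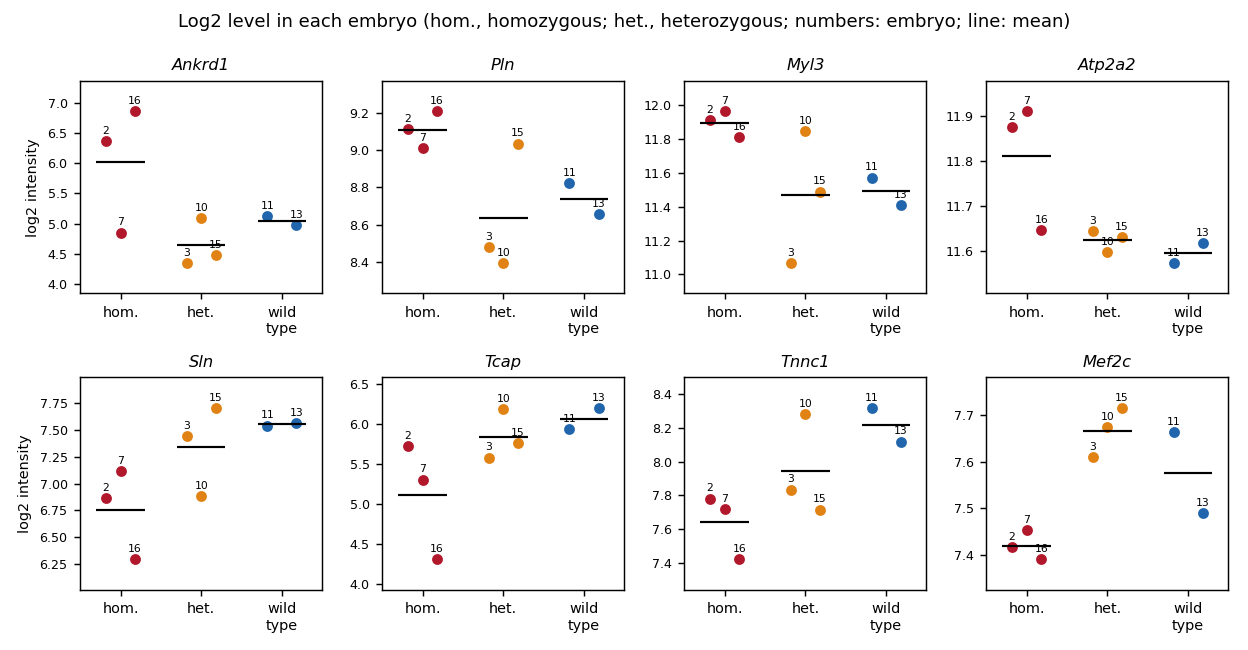
Log2 level of 8 genes in each embryo (points, numbered by embryo), by genotype, with the genotype mean (line). Ankrd1, Pln, Myl3 and Atp2a2 have higher means, and Sln, Tcap, Tnnc1 and Mef2c lower means, in the homozygous embryos. Only for Atp2a2 and Mef2c do the 3 homozygous points stand wholly apart from the 5 others. Under median scaling the difference of Atp2a2 is -0.161 and the median of all probes -0.22.

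Ankrd1, the ankyrin repeat protein of the stressed myocardium, had the largest positive difference of the 30 genes, 1.22 ± 0.41 (SE), or 2.32-fold higher, and did not pass the test (adjusted p = 0.186). Its log2 levels were 6.36, 4.86 and 6.85 in the homozygous, 4.35, 5.10 and 4.49 in the heterozygous, and 5.12 and 4.98 in the wild type embryos. Embryos 2 and 16 stood above all the others, while homozygous embryo 7 lay below heterozygous embryo 10 and both wild type embryos. The probe was above background in 1 of the 3 heterozygous embryos, so the level in the other two is only a bound. Leaving out embryo 7 gave a difference of 1.78 (adjusted p = 0.0283), the one setting under which any of the 30 genes passed. Nppb, the B-type natriuretic peptide, was at 7.05, 6.86 and 9.05 in the homozygous, 7.08, 7.40 and 7.41 in the heterozygous, and 7.24 and 7.19 in the wild type embryos. Embryo 16 alone carried its positive difference of 0.39 ± 0.44 (SE); without that embryo it was -0.317.

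Promoter sequence was available from RefSeq (build GRCm38.p6) for 29 of the 37 genes, in 36 windows. The others are Myocd, Gata4, Gata6, Tbx5, Sln, Atp2a2, Hand1 and Tcap. The windows below hold the 250 bases before the annotated start, 5′ to 3′ on the gene's strand. Among genes with an unadjusted p under 0.05 and a single window in the table, Ankrd1 and Pln are shown as the 2 with the largest positive difference and Smyd1 and Tnnc1 as the 2 with the most negative; Myl3, Myl7 and Actc1 are shown for the CArG box, the binding site of serum response factor. Capitals mark matches to the GATA motif AGATAA, the NKX motif TNAAGTG and the CArG box, each on either strand, and to TATAAA on the gene's strand.
Ankrd1 (chr19:36119845-36120094, minus strand): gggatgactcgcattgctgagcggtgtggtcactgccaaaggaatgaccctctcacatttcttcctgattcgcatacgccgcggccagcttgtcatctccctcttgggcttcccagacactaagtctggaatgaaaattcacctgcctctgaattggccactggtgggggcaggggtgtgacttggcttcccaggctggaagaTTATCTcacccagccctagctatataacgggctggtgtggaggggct
Pln (chr10:53337436-53337685, plus strand): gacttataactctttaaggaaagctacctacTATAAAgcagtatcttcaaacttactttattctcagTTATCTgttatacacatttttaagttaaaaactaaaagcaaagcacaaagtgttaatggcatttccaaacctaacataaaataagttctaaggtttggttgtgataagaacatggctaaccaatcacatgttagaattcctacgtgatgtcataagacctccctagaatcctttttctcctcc
Smyd1 (chr6:71262282-71262531, minus strand): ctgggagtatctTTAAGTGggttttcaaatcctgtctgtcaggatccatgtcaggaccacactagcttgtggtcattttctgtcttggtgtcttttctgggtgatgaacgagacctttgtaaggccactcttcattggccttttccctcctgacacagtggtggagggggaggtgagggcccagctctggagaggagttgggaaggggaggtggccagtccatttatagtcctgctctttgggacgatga
Tnnc1 (chr14:31208062-31208311, plus strand): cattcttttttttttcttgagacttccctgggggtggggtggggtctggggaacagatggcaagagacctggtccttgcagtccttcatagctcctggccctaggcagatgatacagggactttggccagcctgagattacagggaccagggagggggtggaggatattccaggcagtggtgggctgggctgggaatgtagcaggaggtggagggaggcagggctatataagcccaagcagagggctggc
Myl3 (chr9:110763428-110763677, plus strand): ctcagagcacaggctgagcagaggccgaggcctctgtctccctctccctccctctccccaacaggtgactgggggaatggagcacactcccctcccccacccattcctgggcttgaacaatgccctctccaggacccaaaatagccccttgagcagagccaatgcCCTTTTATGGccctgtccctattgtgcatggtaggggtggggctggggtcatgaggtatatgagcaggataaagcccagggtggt
Myl7 (chr11:5898783-5899032, minus strand): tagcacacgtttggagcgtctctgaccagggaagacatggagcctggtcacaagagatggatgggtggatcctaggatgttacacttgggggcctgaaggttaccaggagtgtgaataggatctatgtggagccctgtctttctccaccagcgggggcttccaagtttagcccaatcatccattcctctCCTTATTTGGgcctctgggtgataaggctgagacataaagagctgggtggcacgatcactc
Actc1 (chr2:114052876-114053125, minus strand): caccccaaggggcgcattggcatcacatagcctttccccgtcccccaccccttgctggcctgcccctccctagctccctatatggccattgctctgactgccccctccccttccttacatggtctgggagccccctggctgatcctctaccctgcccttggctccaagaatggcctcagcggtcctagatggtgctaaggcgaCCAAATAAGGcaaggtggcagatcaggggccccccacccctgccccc

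The CArG match began 85 bases before the start of Myl3, 61 before that of Myl7 and 47 before that of Actc1. A CArG box was found in 13.9% of the 36 windows, from 4 genes (Actc1, Ldb3, Myl3 and Myl7), against 1.47% of all 32851 windows of the table. AGATAA was found in 19.4% of the windows, from 7 genes that include Ankrd1, Pln, Myl2, Nppb and Tnnt2, against 9.99% of all windows. TNAAGTG was found in 11.1% against 10.1%, the MEF2 motif in 5.56% against 2.92%, and TATAAA in 8.33% against 7.59%. Of the genes with a CArG box in the window, the 3 that were tested had positive differences after quantile normalization (0.42 for Myl3, 0.36 for Myl7 and 0.22 for Actc1). Under median scaling Myl3 stayed positive, Myl7 was at -0.0485 and Actc1 at -0.184, with the median of all probes at -0.22. The letters are a description of these windows; whether a factor binds there was not tested.

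Set out by chamber, no gene of either the ventricles or the atria passed the test. The 4 ventricular genes (Myl2, Myl3, Myh7 and Hand1) had a median difference of 0.22 and the 3 tested atrial genes (Myl4, Myl7 and Sln) one of 0.05. The ventricular differences ran from 0.01 to 0.42. The atrial median is the value of Myl4, between Myl7 (0.36) and Sln (-0.67), so it does not describe a shared direction. Relative to all probes these medians were 0.28 and 0.12; over the alternatives run they ranged from 0.0908 to 0.358 and from -0.0873 to 0.222, the atrial one turning negative (-0.087) under median scaling and with the authors' scaled values. Myl2, the ventricular regulatory light chain, was at 11.51, 11.54 and 11.27 in the homozygous, 10.99, 11.37 and 11.66 in the heterozygous, and 11.63 and 11.42 in the wild type embryos. Myl4, the atrial essential light chain, was at 11.76, 11.65 and 11.68 in the homozygous, 11.26, 12.08 and 11.66 in the heterozygous, and 11.67 and 11.55 in the wild type embryos. In both, heterozygous embryo 3 was lowest and the homozygous values fell among the others; the differences were 0.03 ± 0.16 (SE) and 0.05 ± 0.17 (SE). Myh7, the beta myosin heavy chain, was at 5.95, 5.61 and 5.77 in the homozygous, 4.63, 6.12 and 4.75 in the heterozygous, and 5.96 and 5.43 in the wild type embryos, with embryo 3 not above background, and its difference was 0.40 ± 0.35 (SE), or 0.213 without that embryo. Hand1, a factor of the left ventricle and of extraembryonic tissue, was at 7.65, 8.02 and 8.08 in the homozygous, 7.83, 8.23 and 7.78 in the heterozygous, and 7.90 and 7.81 in the wild type embryos, a difference of 0.01 ± 0.14 (SE). Under median scaling its difference was -0.181, with the median of all probes at -0.22. The atrial heavy chain gene Myh6 was not above background in any embryo.

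**Figure D5:**
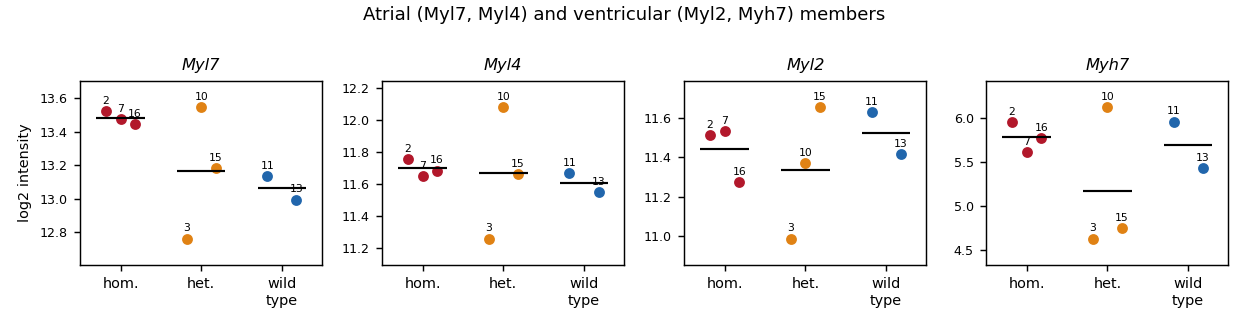
Log2 level of 2 atrial genes (Myl7, Myl4) and 2 ventricular genes (Myl2, Myh7) in each embryo (points, numbered by embryo), by genotype, with the genotype mean (line). The homozygous points lie within the span of the heterozygous points in all 4 panels, and embryo 3 is the lowest of the 8 in each.

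The comparisons with each genotype alone share arrays with the one above and are given for their own values. Against wild type, none of the 30 genes passed the adjusted threshold (0.0342% of all probes passed), and 4 had an unadjusted p under 0.05, all lower, against 15.3% of all probes. They were Tnnc1 (-0.58 ± 0.20 SE, adjusted p = 0.273), Sln (-0.79 ± 0.29 SE), Tcap (-0.96 ± 0.39 SE) and Isl1 (-0.36 ± 0.15 SE). Against heterozygous embryos none passed (0.0214% of all probes passed), and 3 had an unadjusted p under 0.05, against 11.6%: Ankrd1 (1.38 ± 0.48 SE, adjusted p = 0.399) and Pln (0.47 ± 0.18 SE) were higher and Mef2c (-0.25 ± 0.10 SE) lower. Between heterozygous and wild type embryos 0 of the 30 genes passed by limma, and 0 had an unadjusted p under 0.05, where 0% and 2.3% of all probes did. The largest of these differences was that of Myh7, -0.53 ± 0.43 (SE). The median differences of the 30 genes were 0.09 against wild type, 0.14 against heterozygous embryos, and -0.02 between heterozygous and wild type embryos.

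A wider list of 40 cardiac genes, none of them among the 37, was read from the same fit. Of the 29 tested, 21 differences between homozygous and other embryos were positive (72.4%, against 39.8% of all probes), and none passed. At an unadjusted p under 0.05, 6 were higher and 2 lower (20.7% and 6.9%, against 6.63% and 13.4% of all probes). The median was 0.10, against -0.06 over all probes. The list was read after quantile normalization only, so whether its signs depend on the scaling was not tested. The 2 with the smallest p were Asb2, a muscle ubiquitin ligase subunit, and Slc8a1, the sodium-calcium exchanger. Asb2 was at 7.73, 7.41 and 7.70 in the homozygous, 6.72, 7.27 and 6.87 in the heterozygous, and 7.01 and 6.79 in the wild type embryos, so that all 3 homozygous values lay above the 5 others; its difference was 0.68 ± 0.14 (SE, adjusted p = 0.112). Slc8a1 was at 6.06, 6.07 and 5.52 in the homozygous, 5.04, 5.60 and 5.48 in the heterozygous, and 5.34 and 5.25 in the wild type embryos, a difference of 0.54 ± 0.17 (SE, adjusted p = 0.173). The 2 that were lower at an unadjusted p under 0.05 were Myoz2 (-1.47 ± 0.46 SE) and Mb (-0.39 ± 0.16 SE). A second Mb probe was at -0.24 ± 0.18 (SE), with an unadjusted p of 0.217 by limma. For Nr2f2 the probe counted was at 0.13 ± 0.12 (SE) and a second one at 0.58 ± 0.19 (SE). Myoz2 had its lowest value, 3.53, in homozygous embryo 16, and its difference without that embryo was not computed.

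Marker genes of other tissues were read on the same arrays, after quantile normalization only, and their part in the differences above was not tested. Many of the 37 genes are also expressed in skeletal muscle. Those named here are not a full list, and no such set was defined before the values were seen. Their signs therefore do not describe the shared genes as a set. Tcap, Tnnc1, Sln, Smyd1 and Mef2c had the negative differences given above. Myl3 (0.42), Actc1 (0.22) and Actn2 (0.36) had positive ones, and Csrp3 (0.01) and Des (-0.06) differed by less than their SE. That of Actc1 turned to -0.184 under median scaling, with the median of all probes at -0.22. Actn2 was above background in only 1 of the 3 heterozygous embryos. Of 18 skeletal muscle genes 15 were tested, 12 of them lower, 6 of these at an unadjusted p under 0.05 and none after adjustment. That is 40% lower at that p, against 13.4% of all probes, and 20% positive, against 39.8% of all probes. The median difference was -0.56, against -0.06 over all probes. Their summed intensity was 2455 to 2953 in the homozygous and 2712 to 4272 in the 5 other embryos. Tnnt3, the fast skeletal troponin T, differed by -0.60 ± 0.13 (SE, adjusted p = 0.121) and Myh8, the perinatal myosin heavy chain, by -0.78 ± 0.22 (SE, adjusted p = 0.149). Myf6 was not above background in any embryo. As a median deviation the list stood at -0.14, -0.14 and -0.64 in the homozygous, 0.12, -0.22 and 0.23 in the heterozygous, and 0.30 and 0.49 in the wild type embryos, with embryo 16 lowest and the wild type embryos highest.

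No gene of the other marker lists passed the test either. The smooth muscle list (7 of 7 tested) had a median difference of -0.22 and a summed intensity of 4964 to 7548 in the homozygous and 5256 to 6080 in the 5 other embryos; its smallest p belonged to Actg2 (-1.13 ± 0.30 SE) and Smtn (-0.22 ± 0.11 SE). The list of endocardium and endothelium (7 of 8) had a median of 0.20 and a summed intensity, over 6 genes, of 2106 to 2946 in the homozygous and 1937 to 2061 in the 5 other embryos. In it Vwf was at 0.88 ± 0.20 (SE) and Pecam1 at 0.24 ± 0.09 (SE). Of its differences 5 were positive and 2 negative, those of Nfatc1 (-0.09 ± 0.14 SE) and Npr3 (-0.09 ± 0.12 SE). A second Nfatc1 probe was at -0.48 ± 0.12 (SE). The epicardial list (4 of 6) had a median of -0.13 and summed to 3120 to 3240 in the homozygous and 2731 to 3558 in the 5 other embryos, with Tbx18 at -0.12 ± 0.11 (SE) and Upk1b at -0.14 ± 0.13 (SE). The liver list (6 of 7) had a median of -0.71 and summed to 2828 to 3743 in the homozygous and 3760 to 7134 in the 5 other embryos, with Ttr at -1.26 ± 0.22 (SE) and Apoa1 at -0.57 ± 0.15 (SE). The neuron list (7 of 7) had a median of -0.51 and summed to 4758 to 5609 in the homozygous and 4365 to 8540 in the 5 other embryos, with Neurod4 at -0.54 ± 0.20 (SE) and Gap43 at -0.31 ± 0.13 (SE). The erythroid list (5 of 6) had a median of 0.08 and summed to 4026 to 5472 in the homozygous and 4021 to 4668 in the 5 other embryos, with Epb42 at -0.18 ± 0.09 (SE) and Gata1 at -0.19 ± 0.11 (SE).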

How the data were processed

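RNA of 8 whole embryos was measured on 8 one-colour arrays. Per the file headers and a check of the values, the deposited intensity subtracts the local background median from each spot's mean. The authors also deposited a scaled score, the intensity divided by 1 factor per array, which differed from the deposited value table by at most 5e-08. Scanner software was not given in the sources used here. Control spots were left out; spots marked contaminated, irregular or masked were set missing, and saturated spots otherwise kept. Intensities were quantile normalized, floored at the 5th percentile of positive values (log2 2.17) and put on the log2 scale. Probes that exceeded background in every embryo of 1 genotype or more (23389) were fitted with limma 3.58.1 (lmFit, eBayes, two-sided; R 4.3.3), once for homozygous against the 5 other embryos and once with 3 genotype means. Benjamini-Hochberg adjustment ran over all probes in the fit. Probes were named by RefSeq accession (14763 of 34967). The number of arrays limits the precision of every value here.

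Members and lists were chosen with earlier results of these data known. Values in every embryo are given for genes past the threshold or without overlap, for chamber genes, and per class for the 2 with the highest mean and the 2 with the smallest p; of the other lists, the 2 with the smallest p are named, with the probe of the highest mean standing for a gene with several. Nkx2-5, Smyd1, Mybpc3, Popdc2 and the other factors were described after their values were seen. On simulated data with 200 changed probes, the fit of homozygous against other embryos recovered 68% of log2 changes of 1 and 90% of changes of 2. In the simulation a probe had the same spread on every array, without an outlying array, and no change was smaller than 1. It therefore gives no recovery rate for differences as small as most of those described here. Alternatives covered normalization, floor, background correction, filters, marked spots, array weights, the prior, a Y-linked covariate, only the groups compared, and embryos left out.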

Additional observations from a re-analysis of the deposited data

Results flagged for a closer look

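Hand1 stood at a log2 level of 8.23 in heterozygous embryo 10, against 7.78 to 7.90 in the other four embryos that were not homozygous. The gap between embryo 10 and the next value was large for a group of 5; of 30 genes looked at in this way it was the only one, and chance alone picks about 1 in 20 groups. Ryr2 was left out of the tests as not above background, yet it was above background in homozygous embryo 16, at a log2 level of 4.59, and in none of the others. Casq2, left out for the same reason, was above background in homozygous embryo 16, at 6.94, and in wild type embryo 13, at 5.0. Array 16 was the brightest of the 8, and its part in these values was not tested.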

How the results depend on the processing

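No paired analysis was possible because the genotypes share no embryo numbers. Of the 30 genes tested, 18 kept the sign of their difference between homozygous and other embryos under every alternative run. Median scaling and the deposited value table lowered the median of all probes, so a negative difference could hardly change sign there. Under median scaling, and with the deposited value table, differences turned negative for Tbx5 (-0.183 and -0.216), Hand1 (-0.181 and -0.215), Myl2 (-0.325 and -0.359), Myl4 (-0.305 and -0.339), Myl7 (-0.0485 and -0.0823), Tnni3 (-0.235 and -0.268), Actc1 (-0.184 and -0.217), Csrp3 (-0.225 and -0.259) and Atp2a2 (-0.161 and -0.195). The median of all probes lay at -0.22 and -0.25 under these settings. Tbx5, Hand1, Myl7, Actc1 and Atp2a2 lay above it in both, and Myl2, Myl4, Tnni3 and Csrp3 below it. With marked spots kept, Hand1 was at -0.0136 and Csrp3 at -0.0026; with array weights, Hand1 was at -0.039 and Nppb at -0.117; with the Y-linked covariate, Csrp3 was at -0.00711. Without embryos 10 and 16 together, Des was at 0.00995 and Nppb at -0.28. Leaving out 1 embryo at a time, differences ranged from -0.141 to 0.00343 for Gata4, -0.0753 to 0.14 for Hand1, -0.0792 to 0.113 for Myl2, -0.044 to 0.162 for Myl4, -0.062 to 0.145 for Tnni3, -0.112 to 0.116 for Csrp3 and -0.317 to 0.786 for Nppb. Genes past the threshold numbered 0 to 1 with 1 embryo left out (1, Ankrd1, without homozygous embryo 7, when 314 probes passed in all, against 25 with all embryos) and 0 under every other alternative, in each comparison. The 30 genes' median minus that of all probes was 0.189 in homozygous against the 5 other embryos, and 0.036 under median scaling and 0.0356 with the deposited table. In homozygous against heterozygous embryos, this value was 0.204, and 0.0311 under median scaling and 0.0306 with the deposited table. For calcium handling and membrane genes against the 5 others it was 0.378, against 0.235 under median scaling and 0.234 with the deposited table. It was 0.26 with probes above background and unmarked on all arrays (which leaves out Popdc2), and 0.321 to 0.501 with 1 embryo left out. The cause of these shifts was not tested. A mean over several probes of a gene was not run, since each gene had 1 probe. Levels near background, as for Ankrd1, Actn2 and Myh7, limit what can be read from them, and 2 wild type embryos give little spread of their own. The same holds for Tcap (4.31) and Smyd1 (4.48) in homozygous embryo 16. On that array the lowest level above background was 3.40, against 4.28 to 4.56 on the other arrays.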
